A study of Mus musculus with 3 samples.

Results

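The growth factor receptor tyrosine kinases followed here are Egfr, Erbb2, Erbb3, Fgfr1, Fgfr2, Fgfr3, Pdgfra, Pdgfrb and Met, taken by gene symbol from the annotation of the array. The annotation named 16 probe sets for 8 of these 9 receptors, out of 8251 genes in all, and no probe set was named for Erbb2, which was not analysed here. The tissue was medial edge epithelium, the cell layer at the tips of the palatal shelves, from CF-1 mouse embryos at ED13.5 (embryonic day), separated from the underlying tissue with the protease Dispase II. The first array held unfused epithelium, for which the labels name no culture (0 h), the second held fused epithelium from shelves cultured in contact for 12 h, and the third held fused epithelium at 24 h, described as undergoing transformation from epithelium to mesenchyme. No genotype, transgene or added agent is named for any of the 3 groups, and the number of embryos behind each sample is not stated. Fusion and time in culture cannot be told apart in this design.

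Receptor tyrosine kinases span the membrane once, bind a growth factor outside the cell and phosphorylate one another inside it, which recruits adaptors that switch on Ras, Erk and PI3 kinase. Members of the Egfr family work in pairs, and Erbb3, whose own kinase is weak, signals through its partners. Fgf receptors need heparan sulfate as a coreceptor. In many embryonic organs Fgfr2 is expressed in epithelium, where it receives Fgf signals from mesenchyme, Pdgfra and Pdgfrb are receptors of mesenchymal and perivascular cells, and Met is the epithelial receptor of the mesenchymal factor Hgf. Signalling by Egf, Fgf and Pdgf ligands is needed for normal palate development.

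The values were signal intensities, scaled so that the 3 arrays had the same trimmed mean, and signals at or below the 40th percentile of the 3 arrays together (3.76 on the log2 scale) were treated as lying at a floor at which no level is read. With 1 array at each time there are no replicates, so differences carry neither errors nor p-values, and precision is limited by the number of arrays. The disagreement between probe sets of the same gene gave the only gauge of spread. Individual probe sets scattered about the mean log2 ratio of their gene with an SD of 1.24 between 0 h and 12 h (672 genes). The SD was 0.82 between 12 h and 24 h (687 genes) and 1.07 between 0 h and 24 h (748 genes). It also holds real differences between transcripts. Because it compares probe sets on the same arrays, variation between samples is not in it. For Gapdh, the 3' control signal exceeded the 5' one 14.9-fold at 12 h and 12.6-fold at 24 h, against a ratio of 0.828 at 0 h, and the Actb ratios at 0, 12 and 24 h were 1.02, 11.9 and 2.97, so the arrays also differed in the evenness of transcript coverage. Its part in the differences below was not tested. In a bulk sample, fewer cells of a type and less RNA per cell cannot be told apart.

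Of the 16 receptor probe sets, 6 lay above the floor on all 3 arrays, 5 on 1 or 2 of them and 5 on none. By its brightest probe set, the one with the highest mean signal, a receptor lay above the floor in 7 of 8 cases at 0 h, 5 at 12 h and 6 at 24 h. Of all 8251 genes, 5878, 5405 and 5742 did so at 0, 12 and 24 h, also fewest at 12 h. By their brightest probe sets, most receptors were highest in the unfused epithelium, though some other sets of Egfr, Fgfr2 and Pdgfra were highest later. Of the 7 receptors with a ratio or bound, 6 lay below their 0 h signal at 12 h and 6 at 24 h. Of all genes with a ratio or bound, 57.6% and 53.5% did so. With the values as deposited the counts were 7 and 7, and with median centring 5 and 6. Few of these differences reached 2-fold, namely that of Egfr at 12 h and that of Erbb3 at 24 h.

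**Figure D1:**
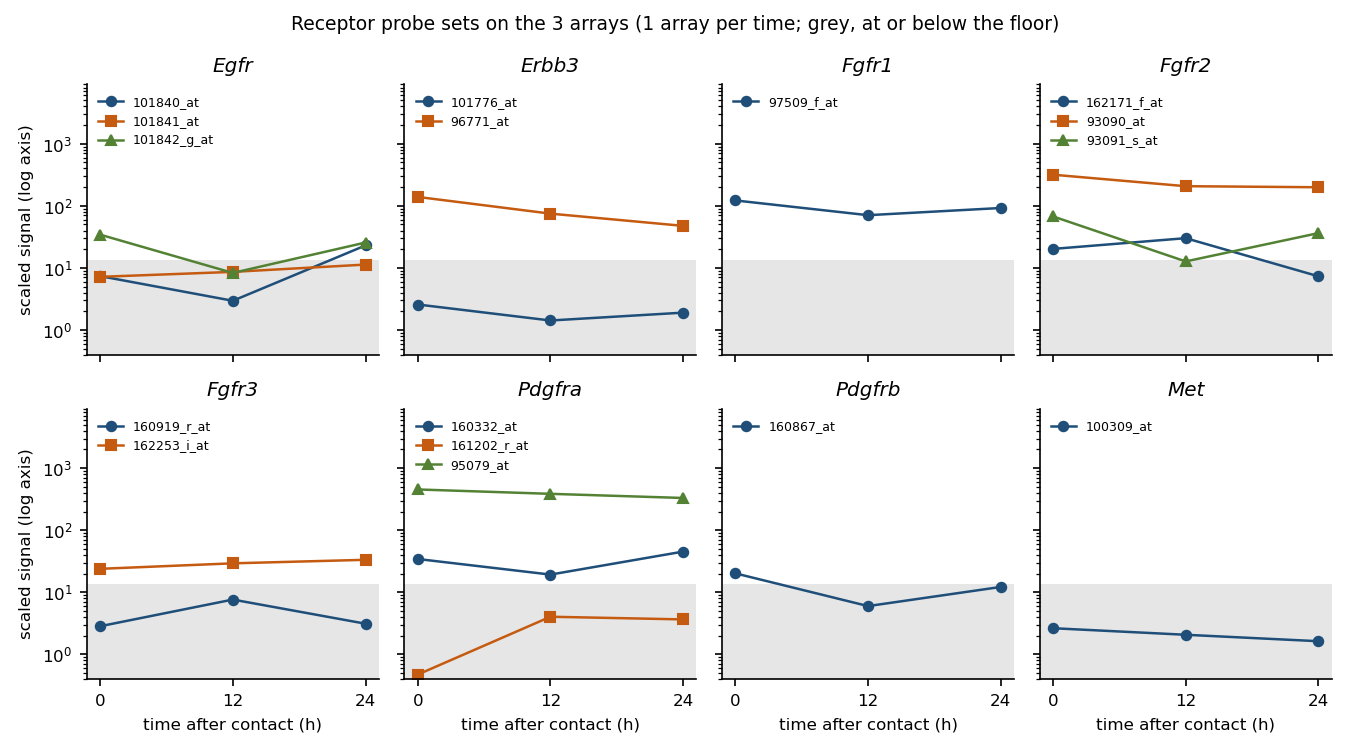
Scaled signal on a log axis (y) against hours after contact of the shelves (x) for every probe set of 8 receptors, 1 panel per receptor and 1 point per array, with the range at or below the floor in grey. The brighter Erbb3 set is lower at each later time, the brightest sets of Pdgfra and Fgfr2 stay well above the floor throughout, and Met lies in the grey range on every array.

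Erbb3, a receptor of neuregulins, had the largest measured ratio among the receptors by their brightest probe sets. Its brighter probe set, 96771_at, gave scaled signals of 139, 74.8 and 47.5 at 0, 12 and 24 h. The unfused array was thus the highest and the transforming array the lowest. The signal was 1.85-fold lower at 12 h than at 0 h and 1.58-fold lower at 24 h than at 12 h, steps that are each below the SD between probe sets, and 2.92-fold lower at 24 h than at 0 h, a log2 ratio of -1.55 against an SD of 1.07. Its rank among all probe sets, which no scaling can move, went from the 85.6th percentile at 0 h to the 78.3rd at 12 h and the 66.0th at 24 h. The other Erbb3 probe set, 101776_at, stayed at the floor on all 3 arrays, with signals of 1.42 to 2.57, and gave no ratio. Erbb3 was lower at 24 h than at 0 h under all 8 alternatives that gave a value, with log2 ratios from -2.55 to -0.77, and the smallest of these came from averaging the probe set at the floor with the brighter one.

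Egfr, the receptor of Egf, Tgfa and Hbegf, was near the floor on every array. The brightest of its 3 probe sets, 101842_g_at, gave 34.3 at 0 h, 8.29 at 12 h and 25.6 at 24 h. The 12 h array was the low one, at the floor, so that Egfr was at least 2.53-fold below its 0 h signal there. From 12 h to 24 h it was higher by at least 1.89-fold, and the 24 h signal was 1.34-fold lower than that at 0 h. Probe set 101840_at gave 7.37, 2.95 and 23.0 at 0, 12 and 24 h and so was above the floor at 24 h alone, at least 1.70-fold higher than at either earlier time. Probe set 101841_at lay at the floor throughout, at 7.17 to 11.3. Without probe sets whose suffix marks possible hybridization to several transcripts, 101840_at stands for Egfr, the 2-fold difference at 12 h has no value, and the log2 ratio of 24 h over 0 h turns from -0.42 to at least 0.77. The direction between 0 h and 24 h thus depended on the probe set.

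Fgfr2, which receives mesenchymal Fgf signals in many epithelia, was clearly above the floor by its brightest probe set, 93090_at. Its signals were 317 at 0 h, 207 at 12 h and 199 at 24 h, highest in the unfused tissue and alike at the later times. These were 1.53-fold and 1.59-fold lower than at 0 h, within the SD between probe sets. The other probe sets moved differently from 93090_at and from each other. Probe set 93091_s_at gave 67.5, 12.7 and 36.3 at 0, 12 and 24 h, with the 12 h array at the floor, at least 4.99-fold below 0 h and at least 2.69-fold below 24 h. Probe set 162171_f_at gave 20.2, 30.1 and 7.32, highest at 12 h, where it was 1.49-fold above 0 h and at least 2.23-fold above 24 h. All 3 sets were lower at 24 h than at 0 h, with log2 ratios of -0.67 and -0.89 and a bound of -0.58. The Fgfr2 gene gives rise to an epithelial and a mesenchymal splice form, and which form each probe set reads was not determined.

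Fgfr1, a receptor of both epithelium and mesenchyme, had a single probe set, 97509_f_at, of a kind that can hybridize to several members of a gene family. It gave 122 at 0 h, 70.6 at 12 h and 92.2 at 24 h. The 12 h array was lowest, 1.73-fold below 0 h and 1.31-fold below 24 h, with every difference under the SD between probe sets. Fgfr3 was lowest in the unfused tissue under this scaling. Its brighter probe set, 162253_i_at, gave 23.9, 29.3 and 33.4 at 0, 12 and 24 h, a log2 ratio of 0.48 for 24 h over 0 h that became -0.53 with the values as deposited. The other Fgfr3 set, 160919_r_at, lay at the floor at 2.84 to 7.64. Both Fgfr3 sets carry suffixes of less specific or incomplete probe sets, so without such sets neither Fgfr1 nor Fgfr3 has a value.

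Pdgfra, a receptor that marks much of the craniofacial mesenchyme, had 3 probe sets. The brightest, 95079_at, gave 454 at 0 h, 386 at 12 h and 331 at 24 h, with the unfused array highest. These differences came to 1.18-fold, 1.17-fold and 1.37-fold, all well under the SD between probe sets. Probe set 160332_at gave 34.4, 19.3 and 45.3, lowest at 12 h and highest at 24 h, and was 2.35-fold higher at 24 h than at 12 h. The brightest set had a log2 ratio of -0.22 for the same step, so the sets disagreed in direction, and their mean gave 0.34. Probe set 161202_r_at stayed at the floor at 0.473 to 4.04.

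Pdgfrb, the receptor of pericytes and vascular smooth muscle, had 1 probe set, 160867_at, which gave 20.2, 6.00 and 12.2 at 0, 12 and 24 h. It was above the floor at 0 h alone and so at least 1.49-fold lower at both later times, with no ratio between 12 h and 24 h. Met was at the floor throughout: probe set 100309_at gave 2.64, 2.07 and 1.63 at 0, 12 and 24 h, and no ratio was computed. A signal at the floor does not show that the transcript was absent.

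**Figure D2:**
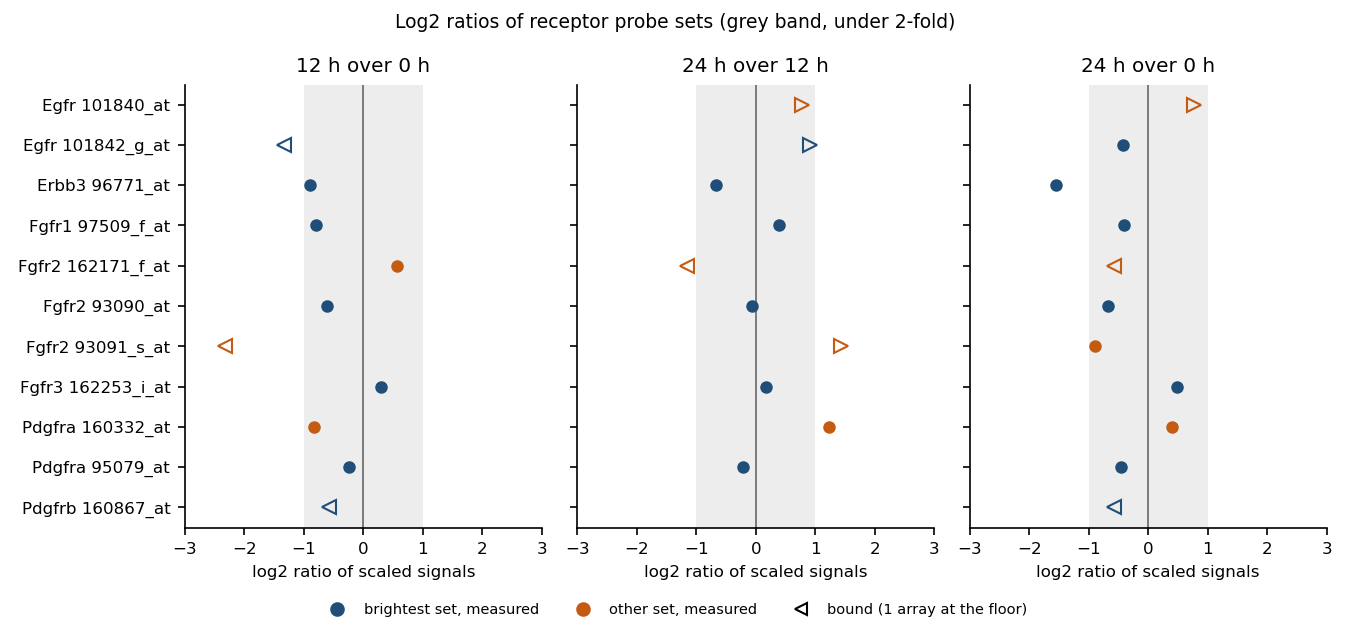
Log2 ratio of scaled signals (x) for the 11 receptor probe sets that gave any ratio (y), in 1 panel per comparison; filled circles are measured on both arrays, open triangles are bounds with 1 array at the floor, blue marks the brightest set of a receptor and orange its other sets. The grey band spans differences under 2-fold, and the sets of Fgfr2 and of Pdgfra lie on both sides of 0 in the step from 12 h to 24 h.

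The start regions of Fgfr2 and Egfr are shown because both receptors were lower at 12 h than at 0 h by their brightest probe sets, of 6 receptors with a RefSeq promoter entry. Pdgfra, also among those, was lower by 1.18-fold and is not shown. The array measures RNA and says nothing of activity at these sequences. Each holds the 250 bases before the start, read 5' to 3' on the strand of the gene, with every CpG dinucleotide in capitals. Fgfr2 lies on the minus strand at chr7:130266809-130267058 and Egfr on the plus strand at chr11:16751953-16752202 of GRCm38.p6.
Fgfr2: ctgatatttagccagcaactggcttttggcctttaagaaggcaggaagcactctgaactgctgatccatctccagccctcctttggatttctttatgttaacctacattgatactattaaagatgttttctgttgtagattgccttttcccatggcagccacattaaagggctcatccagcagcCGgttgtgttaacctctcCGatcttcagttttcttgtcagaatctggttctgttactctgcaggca
Egfr: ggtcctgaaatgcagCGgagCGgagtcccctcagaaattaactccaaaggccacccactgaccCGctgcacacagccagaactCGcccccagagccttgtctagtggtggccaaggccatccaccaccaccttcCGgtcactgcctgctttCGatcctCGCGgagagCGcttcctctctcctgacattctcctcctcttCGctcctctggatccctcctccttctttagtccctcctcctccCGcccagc
The Fgfr2 sequence has 2 CpG and 44.0% G and C, the Egfr sequence 11 CpG and 60.8%, against medians of 6 CpG and 52.4% over 32851 RefSeq promoters of the same length. The letters GGGCGG of a GC box, searched on both strands, occur 1 time in Egfr and not in Fgfr2, and in 32.7% of all promoters. Neither holds TATAAA, which 12.4% of promoters hold, nor CCAAT, held by 33.8%.

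The receptors past 2-fold were counted beside all genes. For 12 h over 0 h, 0 of 7 receptors with a ratio or bound reached 2-fold upward, against 17.7% of 6379 genes, and 1 (Egfr) reached 2-fold downward, against 27.3%. For 24 h over 12 h, 0 of 6 reached 2-fold upward, against 18.8% of 6141 genes, and 0 downward, against 12.0%. For 24 h over 0 h, 0 of 7 reached 2-fold upward, against 14.5% of 6392 genes, and 1 (Erbb3) downward, against 17.7%. Over so few receptors, the counts set nothing apart from all genes.

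The direction of small differences rested on how the arrays were scaled. The median log2 ratio of the receptors was -0.61 from 0 h to 12 h, 0.06 from 12 h to 24 h and -0.46 from 0 h to 24 h, and that of all genes, in the same order, -0.21, 0.17 and -0.08. With the values as deposited the receptor medians were -1.30, -0.25 and -1.42 and those of all genes -0.83, -0.12 and -0.98. After median centring they were -0.44, -0.06 and -0.32 for the receptors and 0.01, 0.06 and 0.05 for all genes, and after quantile normalization -0.57, -0.09 and -0.37 and 0.07, 0.01 and 0.03. The receptor median was below that of all genes under each of these 4 scalings. It was not so for 24 h over 12 h under 2 other alternatives, with 0.21 against 0.14 for the mean over probe sets and 0.18 against 0.18 with the floor at the 20th percentile. For single receptors the scaling turned the sign of Fgfr3 in all 3 comparisons and of Pdgfra for 12 h over 0 h, from -0.24 to 0.03 after median centring. Egfr at 12 h and Erbb3 at 24 h stayed at least 2-fold lower than at 0 h under all 4.

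Among all genes, 39.3% of the 2-fold differences for 12 h over 0 h were upward. That share was 16.8% for values as deposited, 51.0% with median centring and 51.1% with quantile normalization. For 24 h over 12 h the share was 61.1%, with 39.4% as deposited and 50.9% after quantile normalization, and for 24 h over 0 h it was 45.0%, with 8.36% as deposited.

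**Figure D3:**
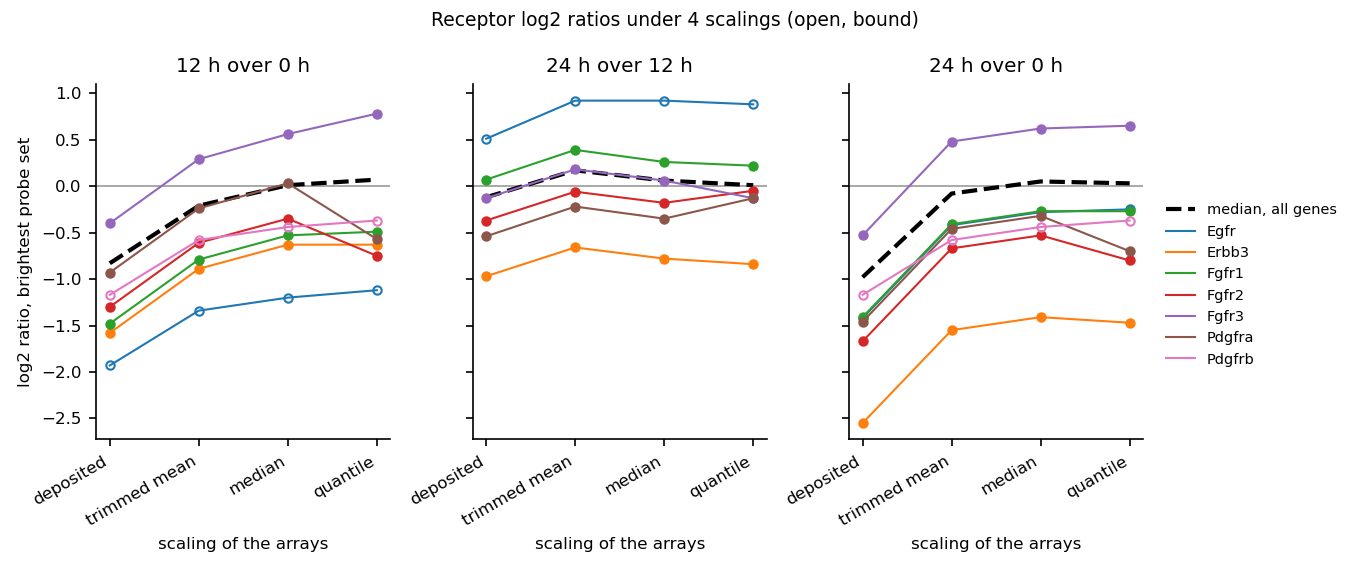
Log2 ratio of the brightest probe set of each receptor (y) under 4 ways of scaling the arrays (x), in 1 panel per comparison; lines join the values of a receptor, open points are bounds, and the dashed black line is the median of all genes. Values as deposited lie lower than the scaled ones in the comparisons with 0 h, and Erbb3 is lowest in the last panel under each scaling; Egfr there runs under the line of Fgfr1.

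The 39 other receptor tyrosine kinases on the array, of 44 listed, served as the nearest comparison. Of those with a ratio or bound, 2 of 27 reached 2-fold upward and 7 downward for 12 h over 0 h, 2 of 25 and 2 of 25 for 24 h over 12 h, and 1 of 26 and 4 of 26 for 24 h over 0 h. All genes past 2-fold upward and downward came to 17.7% and 27.3%, 18.8% and 12.0%, and 14.5% and 17.7%. With the values as deposited, 0 of these receptors reached 2-fold upward and 14 downward for 12 h over 0 h, and 0 and 12 for 24 h over 0 h. Their median log2 ratios were -0.48, 0.32 and -0.07. Igf1r, the receptor of insulin-like growth factors, gave 272 at 0 h, 38.4 at 12 h and 60.1 at 24 h, 7.09-fold lower at 12 h than at 0 h and 4.53-fold lower at 24 h. The Eph receptors Epha3 and Ephb3, receptors of membrane-bound ephrins, had 0 h signals of 119 and 69.0 and lay below these at 24 h by at least 8.82-fold and 5.10-fold. Flt3, a cytokine receptor of blood progenitors, was 2.01-fold higher at 24 h than at 0 h by its brightest set, while its other set gave a log2 ratio of -0.72; as deposited the brightest set gave 0.00. Kit, the stem cell factor receptor, gave 27.0, 56.5 and 20.7, highest at 12 h, with a log2 ratio for 12 h over 0 h of 1.07 that was 0.38 as deposited. The related receptors Erbb4 and Fgfr4 lay at the floor on all arrays.

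Few ligands of these receptors were above the floor. Of all 8251 genes, 1682 lay at the floor on all arrays. Of 11 genes of the Egf family, 6 were on the array, and Hbegf, the heparin-binding ligand of Egfr, was the only one of those above the floor on any array. It gave 42.5 at 0 h, 6.87 at 12 h and 36.3 at 24 h. Its 12 h signal was the low one, as for Egfr, at least 3.14-fold below that at 0 h and at least 2.69-fold below that at 24 h, and each direction held under the 4 scalings. Egf, Tgfa, Btc, Ereg and Nrg3 lay at the floor throughout, at 0.271 to 10.3.

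Of 22 Fgf ligands, 17 were on the array and 12 of those lay at the floor on all arrays, among them Fgf8 and Fgf10. Those with a ratio or bound numbered 4 for 12 h over 0 h, 4 for 24 h over 12 h and 5 for 24 h over 0 h. None of them reached 2-fold. Upward and downward shares of all genes were 17.7% and 27.3%, 18.8% and 12.0%, and 14.5% and 17.7%. Fgf7, a mesenchymal ligand of the epithelial form of Fgfr2, gave 17.1, 10.3 and 20.1 at 0, 12 and 24 h, close to the floor. Fgf9, a ligand often made by epithelium, was above it at 0 h alone, at 16.2. Fgf4 gave 82.2, 57.5 and 99.9, lowest at 12 h, with a log2 ratio for 24 h over 0 h of 0.28 that became -0.72 with the values as deposited.

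Both PDGF ligands on the array exceeded their 0 h signals at 24 h by 2-fold or more. Pdgfa, the main ligand of Pdgfra and often made by epithelia, gave 108 at 0 h, 205 at 12 h and 221 at 24 h, 1.91-fold and 2.05-fold higher than at 0 h. Pdgfb, a ligand of both PDGF receptors typically made by endothelium, gave 14.5, 18.1 and 40.3 and was 2.78-fold higher at 24 h than at 0 h. Both were thus lowest in unfused and highest in transforming epithelium under this scaling, while the brightest set of Pdgfra ran the other way. The order was not kept under every scaling: with the values as deposited Pdgfb had a log2 ratio of -0.37 for 12 h over 0 h, and Pdgfa one of -0.21 for 24 h over 12 h, which was -0.02 with median centring. With the values as deposited the log2 ratios of 24 h over 0 h shrank from 1.04 to 0.03 for Pdgfa and from 1.48 to 0.47 for Pdgfb. Both genes had 1 probe set each. Pdgfc and Pdgfd were not analysed here.

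Hgf, the ligand of Met, lay at the floor on every array at 0.811 to 7.64, as did Met. Its inhibitor of activation Spint1 was above the floor at 0 h alone, at 23.9. Among proteases that release Egf family ligands, Adam9 exceeded its 0 h signal 3.20-fold at 12 h and 2.17-fold at 24 h, differences that shrank to log2 ratios of 0.99 and 0.11 with the values as deposited. Adam10 gave 76.3, 340 and 88.1, 4.46-fold higher at 12 h than at 0 h by its brightest probe set, while its other set gave a log2 bound of -1.84. Adam17, the main sheddase of Egfr ligands, was above the floor at 24 h alone, at 21.7.

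The coreceptors hold surface proteoglycans that present Fgf ligands. Of 10 on the array, 1 of 8 with a ratio or bound reached 2-fold upward and 3 downward for 12 h over 0 h, 3 of 9 and 1 of 9 for 24 h over 12 h, and 3 of 8 and 0 of 8 for 24 h over 0 h. The shares of all genes in the same order were 17.7% and 27.3%, 18.8% and 12.0%, and 14.5% and 17.7%. The coreceptor counts for 24 h over 0 h became 0 and 1 with the values as deposited and 5 and 0 with quantile normalization. Gpc3, a heparan sulfate proteoglycan of the cell surface, gave 781, 312 and 1980 at 0, 12 and 24 h, 2.50-fold below the 0 h signal at 12 h and 2.53-fold above it at 24 h, the latter a log2 ratio of 1.34 that was 0.34 as deposited. Gpc1 gave 355, 61.1 and 230, and Sdc4, a syndecan that binds Fgf, gave 54.4, 17.5 and 94.1, and both were lowest at 12 h under all 4 scalings. Gpc4 was 2.06-fold higher at 24 h than at 0 h, with a log2 ratio of 1.04 that became 0.04 for values as deposited. Nrp1, a coreceptor of vascular growth factors, gave log2 ratios for 12 h over 0 h of 2.45 by its set of highest mean signal and 0.30 by the other.

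Inside the cell, 22 of 31 genes of adaptors, Ras, Erk, PI3 kinase and Akt were on the array. For 12 h over 0 h, 4 of 17 with a ratio or bound reached 2-fold upward and 6 downward, for 24 h over 12 h 4 of 15 and 2 of 15, and for 24 h over 0 h 2 of 17 and 4 of 17, beside all-gene shares of 17.7% and 27.3%, 18.8% and 12.0%, and 14.5% and 17.7%. With the values as deposited the counts were 2 and 9 for 12 h over 0 h and 0 and 9 for 24 h over 0 h, and with median centring those for 24 h over 0 h were 2 and 2. Akt1, the kinase that carries the PI3 kinase signal, gave 302, 18.4 and 104 at 0, 12 and 24 h, 16.4-fold lower at 12 h and 2.90-fold lower at 24 h than at 0 h. Akt2 gave 108, 8.62 and 90.8, with the 12 h array again low. Araf, a Raf kinase, was at least 6.06-fold lower at both later times, from a signal of 82.0 at 0 h, and Src was at least 2.20-fold lower, a log2 bound of -1.14 that was -0.93 with quantile normalization. Nras, a Ras GTPase, exceeded its 0 h signal 4.48-fold at 12 h and 2.72-fold at 24 h by its brightest set, at 230, 1032 and 627, but its other set gave log2 ratios of -1.55 and -1.07. As deposited the brightest Nras set had a log2 ratio for 24 h over 0 h of 0.44. The adaptor Crkl was 2.53-fold and 2.08-fold higher than at 0 h, with log2 ratios of 0.65 and 0.05 as deposited. The exchange factor Sos2 was 5.41-fold and 1.82-fold higher, the latter a log2 ratio of 0.86 that was -0.14 with the values as deposited.

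Transcripts that Erk signalling induces and those that restrain it gave no common direction. Of 13 negative regulators on the array, 2 of 11 with a ratio or bound reached 2-fold upward and 3 downward for 12 h over 0 h, 1 and 3 for 24 h over 12 h, and 1 and 3 for 24 h over 0 h. Upward and downward shares of all genes were 17.7% and 27.3%, 18.8% and 12.0%, and 14.5% and 17.7%, and as deposited the list gave 0 and 4 for 12 h over 0 h and 0 and 7 for 24 h over 0 h. Spry4, a feedback inhibitor of Fgf receptor signalling, lay between 59.1 and 60.6 on the 3 arrays, nearly level under this scaling, and had a log2 ratio for 24 h over 0 h of -1.04 with the values as deposited. Dusp6, a phosphatase of Erk and a common readout of Fgf signalling, gave 291, 428 and 203 and was 2.11-fold lower at 24 h than at 12 h, a log2 ratio of -1.07 that was -0.94 with quantile normalization. Errfi1, an inhibitor of Egfr, was 3.06-fold higher at 12 h than at 0 h by its brightest set, while its other set gave a log2 bound of -2.52; as deposited the brightest set gave a log2 ratio of 0.93. Rasa1, which inactivates Ras, gave 89.5, 144 and 16.0 and was 8.98-fold lower at 24 h than at 12 h. Dusp1 and the adaptor Grb10 were 2.40-fold and 2.19-fold lower at 24 h than at 0 h, and Grb10 came to a log2 ratio of -0.96 with quantile normalization.

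Of 10 Erk-induced genes on the array, 1 of 9 with a ratio reached 2-fold upward and 4 downward for 12 h over 0 h, 5 and 2 for 24 h over 12 h, and 0 and 2 for 24 h over 0 h, where all genes gave 17.7% and 27.3%, 18.8% and 12.0%, and 14.5% and 17.7%. The 5 for 24 h over 12 h became 2 as deposited, 3 with median centring and 2 with quantile normalization, and the counts for 24 h over 0 h became 0 and 5 as deposited. Etv4, an ETS factor downstream of Fgf receptors, gave 47.5, 38.2 and 81.2 by 1 set, a log2 ratio for 24 h over 0 h of 0.77 that was -0.23 with the values as deposited. Its other set gave -1.21. The immediate early genes Junb and Ier2 were 10.4-fold and 7.14-fold below their 0 h signals at 12 h and 4.63-fold and 2.30-fold below them at 24 h. Fos, another, gave 1969, 3119 and 1290, highest at 12 h under this scaling but with a log2 ratio for 12 h over 0 h of -0.03 as deposited. Phlda1 was highest at 12 h, 3.18-fold above 0 h and 3.83-fold above 24 h, while Ier3 ran the other way, 2.67-fold lower and then 3.32-fold higher. For 12 h over 0 h Phlda1 had a log2 ratio of 0.98 as deposited and Ier3 one of -0.97 with quantile normalization.

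**Figure D4:**
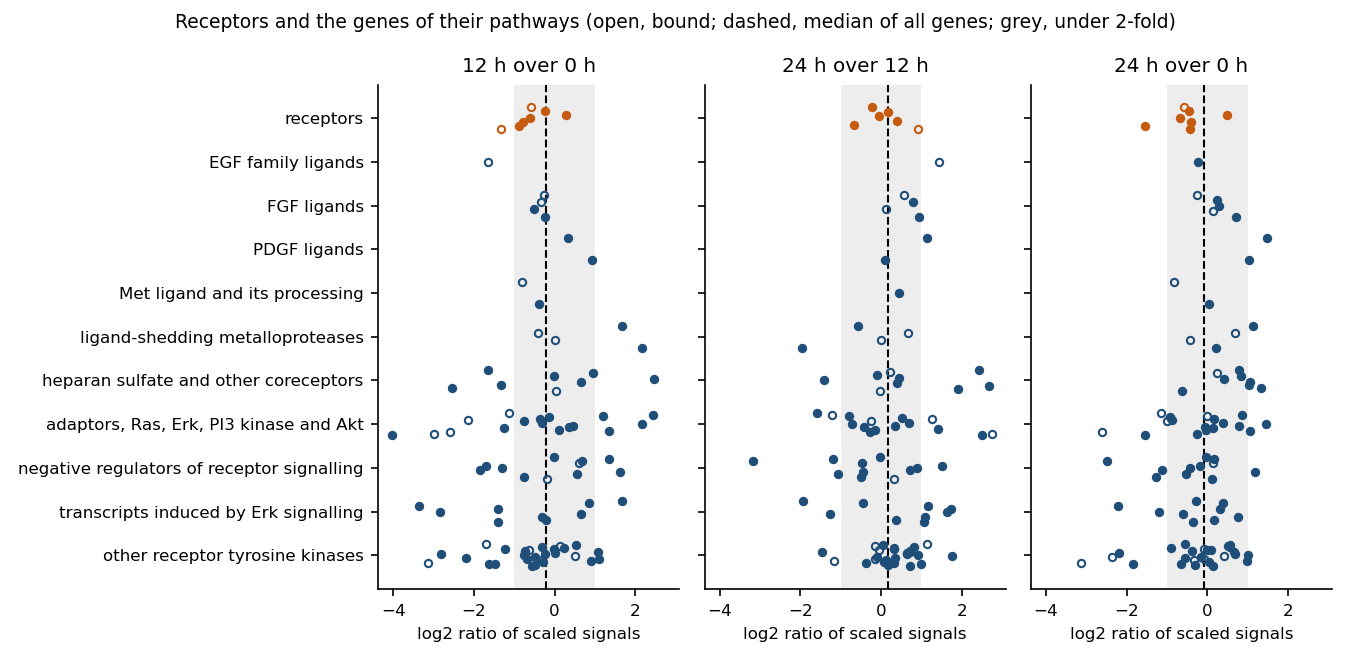
Log2 ratio of scaled signals (x) for the receptors (orange) and for genes of their pathways in 10 lists (blue; y), by the brightest probe set of each gene and in 1 panel per comparison; open points are bounds and the dashed line is the median of all genes. The receptors lie mostly inside the grey band of differences under 2-fold, while transducers, coreceptors and Erk-induced genes spread on both sides of it.

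Markers of other tissues were present beside those of epithelium, and their part in the receptor signals was not tested. Of 14 epithelial markers on the array, 12, 9 and 12 were above the floor at 0, 12 and 24 h, with summed signals of 1113, 2347 and 1928. The larger sum at 12 h rested largely on Dsp and Perp, at 739 and 718. Of 12 with a ratio or bound for 12 h over 0 h, 4 reached 2-fold upward (Dsp, Perp, Epcam and Trp63). Cldn4 alone, 1 of 12, reached it downward, beside 17.7% and 27.3% of all genes, and the list median log2 ratio was -0.06. For 24 h over 12 h, 6 of 12 reached 2-fold upward and 3 downward, beside 18.8% and 12.0% of all genes. For 24 h over 0 h the counts were 5 and 1 of 12, beside 14.5% and 17.7%, with a list median of 0.96. Cdh1, Trp63 and Krt8 were above the floor on all arrays, whereas the basal keratins Krt5 and Krt14 lay at the floor on all of them. Palate mesenchyme markers, which accompany Pdgfra in that tissue, were above the floor in 14, 12 and 13 of 14 cases, with summed signals of 5693, 10798 and 10775, sums that a few bright probe sets carry. The list had no common direction. Of its 14 markers with a ratio or bound, 7 reached 2-fold upward and 6 downward for 12 h over 0 h. For 24 h over 0 h, 5 of 14 and 4 of 14 did so. The shares of all genes were 17.7% and 27.3%, and 14.5% and 17.7%. By their brightest sets, the higher markers at 12 h were the collagen genes Col1a1, Col1a2 and Col3a1, with Lum, Dcn, Postn and Twist1. Col1a2 was 5.91-fold higher by its brightest set, while its other set gave a log2 ratio of -1.21 for 12 h over 0 h. The other Col1a1 set gave 0.10, and the other Col3a1 sets gave 1.25 and 2.39. The lower ones were Prrx1, Prrx2, Twist2, Msx1, Mfap2 and Dlk1. Twist2 was 12.1-fold and Mfap2 37.8-fold lower, and Prrx2 had a log2 ratio of -4.32. Their 12 h signals of 18.4, 20.5 and 14.9 lay little above the floor. From 12 h to 24 h the log2 ratios were 4.51 for Prrx2, 2.49 for Twist2, 3.05 for Mfap2 and 2.40 for Dlk1. Msx1 gave -0.38, and Prrx1 was at the floor at both times. For 24 h over 0 h they were 0.19 for Prrx2, 0.07 for Dlk1, -1.10 for Twist2 and -2.19 for Mfap2. Markers of pericytes and smooth muscle, cells in which Pdgfrb is typical, were above the floor in 4, 4 and 5 of 8 cases with sums of 285, 177 and 258. Of these Mcam was 2.43-fold and Tagln 2.21-fold lower for 12 h over 0 h. Acta2 gave 54.6, 57.4 and 48.8 at 0, 12 and 24 h, and Notch3 gave 61.3, 41.3 and 61.4, all differences under 2-fold. Abcc9, Myh11 and Cnn1 were at the floor throughout. Endothelial markers were above the floor in 6, 7 and 6 of 7 cases with sums of 314, 577 and 524. The larger sum at 12 h rested largely on Cdh5, at 263 against 51.7 at 0 h. For 12 h over 0 h, 2 of 7 reached 2-fold upward (Pecam1 and Cdh5) and 1 downward (Cldn5), beside 17.7% and 27.3% of all genes. For 24 h over 0 h the counts were 3 and 0 of 6, beside 14.5% and 17.7%. Leukocyte markers were above it in 6, 5 and 6 of 10 cases, with Ptprc, Lyz2, Fcer1g and Aif1 at the floor on every array. Sums for erythroid markers were 6461, 1583 and 1497, for skeletal muscle 519, 262 and 264, and for neural and glial markers 651, 288 and 371, each highest at 0 h, with 5, 4 and 5 of 6 erythroid, 5, 5 and 6 of 8 muscle and 4, 3 and 3 of 6 neural markers above the floor. The muscle and neural sums at 0 h rested largely on Actc1, at 280, and Tubb3, at 459. Members of these 2 lists did not share a direction. Myod1, Acta1, Actc1, Tnnc1, Tubb3 and Nefl were highest at 0 h. Under this scaling Myog, Des and Sox10 were highest at 24 h, at 80.7, 19.3 and 107, and Myh3 at 12 h, at 35.5. The probe sets of Stmn2 disagreed in direction. Epb42 of the erythroid, Tnnt2 of the muscle and Elavl3 and S100b of the neural list were at the floor on all arrays.

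For the 5 receptors above the floor on all 3 arrays, the genes of most similar course were sought among 4681 others, by the distance between log2 signals after subtracting the mean of each gene. The nearest were Krt32 (distance 0.006) and Apcdd1 (0.013) for Fgfr1, Apip (0.007) and Gpr162 (0.011) for Fgfr2, Abcg1 (0.021) and Il2rb (0.031) for Fgfr3, Adam5 (0.018) and Gprasp1 (0.031) for Pdgfra, and Mettl26 (0.076) and Scgb1b2 (0.077) for Erbb3. Krt32, for example, gave 127, 73.6 and 95.6 against 122, 70.6 and 92.2 for Fgfr1. Within a distance of 0.1 lay 42 genes for Fgfr1, 34 each for Fgfr3 and Pdgfra, 23 for Fgfr2 and 7 for Erbb3. Over only 3 arrays such likeness is a description of these arrays.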

How the data were processed

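RNA from 3 samples, 1 per time point, was amplified, labelled and hybridized to 1-colour Affymetrix arrays; the labels name Microarray Suite 5.0 and GeneSpring 6.0. The authors deposited linear intensity values, 1 per probe set, without detection calls, with any scaling of theirs unstated; which program wrote them is unstated too. Of 12422 probe sets other than 66 controls, 10833 name 1 gene, 396 several and 1193 none; 10817 were matched to RefSeq symbols (GRCm38.p6) by gene ID. Arrays were scaled to the geometric mean of their trimmed means (2% at each end; factors 0.676, 1.09 and 1.36), floored at the pooled 40th percentile and taken to log2 (Python 3.11.15, numpy 2.4.6, pandas 2.3.3). A gene is its probe set of highest mean signal. Ratios with 1 array at the floor are bounds; with both there is none. No test was possible. The calculation was tested on simulated data, with differences planted in bright probe sets under little noise. That checks the arithmetic and does not gauge error near the floor or between samples. Alternatives changed scaling, floor, probe set choice and fold rule. The receptors and gene lists were chosen with earlier results of these data known. Genes named from a list were at most the 3 highest and 3 lowest by 24 h over 0 h among those past 2-fold in any comparison, the ligands, Spry4, Dusp6 and Etv4, and for each receptor the 2 genes nearest in course; further genes named beside them (Akt2, Spint1, Adam17, Erbb4, Fgfr4 and the marker genes) were chosen after their values were seen.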

Additional observations from a re-analysis of the deposited data

How the results depend on the processing

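Of 9 alternatives, the 3-fold rule leaves ratios unchanged. Across the others, 145 log2 ratios of single receptors could be compared with the reported ones. Of these, 144 moved by less than the SD between probe sets and 1 by more (Egfr for 24 h over 0 h, at least 0.77 without probe sets of marked suffix). Neither 2-fold difference, Egfr at 12 h and Erbb3 at 24 h over 0 h, changed sign. These counts say little of robustness. Values as deposited shift the measured ratios of a comparison alike, by less than the SD, as from -0.89 to -1.58 for Erbb3 for 12 h over 0 h. A change of floor leaves ratios measured under both floors as they were. The count of receptors at least 2-fold lower for 12 h over 0 h, 1 as reported, was 5 with values as deposited, 2 with the floor at the 20th percentile, 2 without a floor (log2 of signal + 1), 0 with the floor at the 60th percentile, 0 with the mean over probe sets, 0 without marked probe sets and 0 with a 3-fold rule. For 24 h over 12 h the count of receptors at least 2-fold higher, 0 as reported, was 2 with the floor at the 20th percentile and 1 without a floor. For 24 h over 0 h the count at least 2-fold lower, 1 as reported, was 6 with values as deposited, 0 with the mean over probe sets and 0 with a 3-fold rule. Over all genes, values as deposited gave 603 higher and 2984 lower genes for 12 h over 0 h in place of 1128 and 1739, 702 higher in place of 1157 for 24 h over 12 h, and 296 and 3244 in place of 925 and 1130 for 24 h over 0 h. The floor at the 60th percentile gave 1141 lower, 660 higher and 717 lower genes for the respective comparisons, no floor gave 1137 lower in place of 737 for 24 h over 12 h, and a 3-fold rule gave 610 and 972, 455 and 281, and 424 and 496. Egfr, Pdgfrb and Met were too close to background to give levels on every array. No paired analysis was possible because each time point has 1 array.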
